A study of Mus musculus with 8 samples.

Results

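The enzymes described here carry cholesterol to conjugated bile acids in the liver. They are 10 genes chosen by name from the classical, alternative and conjugation branches of the pathway: Cyp7a1, Cyp8b1, Cyp27a1, Cyp7b1, Hsd3b7, Akr1d1, Amacr, Acox2, Slc27a5 and Baat. All 10 were measured in every library, among 13774 genes in the table of the transgenic mice and 11773 in the table of the heterozygous mice. The livers came from C57BL/6 mice fed a diet with 42% fat for 8 weeks, so every group carried the diet and no lean group is among them. Ube3a TG homo mice (TG), which overexpress the ubiquitin ligase gene Ube3a, were set against their own WT libraries. Ube3a het mice (het), with a knockout and a wild-type allele, were set against another WT pair. Each of the 4 groups had 2 libraries. The labels do not say whether these came from separate animals, so a p-value reflects no more than the scatter of these libraries, part of which may be technical. The promoter that drives the transgene, the deleted part of Ube3a and the age and sex of the mice are not stated in the labels.

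Bile acids are the main route by which the liver disposes of cholesterol. The classical pathway starts with CYP7A1 in the endoplasmic reticulum, and the alternative pathway starts with mitochondrial CYP27A1 followed by CYP7B1; both converge on shared steps that remodel the sterol ring, after which peroxisomal enzymes shorten the side chain. The products are then joined to an amino acid, mainly taurine in mice. Bile acids returning from the gut repress Cyp7a1 and Cyp8b1 through the nuclear receptor FXR (Nr1h4) and its target SHP (Nr0b2), and through the FGF15 receptor FGFR4 with its partner beta-Klotho (Klb).

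Promoter sequences are shown for Cyp8b1, because its level differed most between libraries of a genotype. Those of Cyp27a1 and Akr1d1 are shown because they match the letters TTATGNAA, searched for the daily clock factor DBP. The transcript of Dbp itself is described below. The sequences are RefSeq's for GRCm38.p6. The window held 250 bases before and 50 bases after the annotated start, 5 of the 10 members had an entry in that table, and the 250 bases before the start are printed. Cyp8b1 (chromosome 9, - strand) is shown at chr9:121916306-121916555, Cyp27a1 (chromosome 1, + strand) at chr1:74713285-74713534 and Akr1d1 (chromosome 6, + strand) at chr6:37529923-37530172. Capitals mark the motif matches.
Cyp8b1: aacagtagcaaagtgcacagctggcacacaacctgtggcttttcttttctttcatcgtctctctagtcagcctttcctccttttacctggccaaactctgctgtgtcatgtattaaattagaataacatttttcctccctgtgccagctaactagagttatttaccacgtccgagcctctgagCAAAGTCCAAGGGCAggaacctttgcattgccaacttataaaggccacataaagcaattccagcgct
Cyp27a1: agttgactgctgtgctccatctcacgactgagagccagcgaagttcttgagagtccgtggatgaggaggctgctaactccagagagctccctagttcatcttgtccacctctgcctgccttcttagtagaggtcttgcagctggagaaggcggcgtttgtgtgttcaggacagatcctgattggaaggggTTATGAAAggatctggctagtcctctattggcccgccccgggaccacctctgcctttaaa
Akr1d1: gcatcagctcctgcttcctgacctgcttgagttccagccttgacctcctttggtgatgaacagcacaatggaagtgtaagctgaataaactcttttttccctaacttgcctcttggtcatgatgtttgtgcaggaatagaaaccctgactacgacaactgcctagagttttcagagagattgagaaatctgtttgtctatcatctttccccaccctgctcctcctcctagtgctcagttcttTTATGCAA

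The letters searched on both strands were CAAAGTCCA for HNF4, CAAGGNCA for NR5A receptors, TTATGNAA for DBP and its relatives, the inverted repeat IR1 of FXR, and TAGGTCA for REV-ERB receptors. The Cyp8b1 capitals are an HNF4 match at bases -67 to -59 from the start and an NR5A match at -60 to -53, which share 2 bases. These letters were found in 0.475% (HNF4) and 6.71% (NR5A) of 32851 promoter windows of the same length. The DBP letters lie at -60 to -53 in Cyp27a1 and at -8 to -1 in Akr1d1, and 3.38% of all windows hold them. Their N accepts any base, and the matched letters were TTATGAAA in Cyp27a1 and TTATGCAA in Akr1d1. The windows of Hsd3b7 and Acox2 held none of the 5 motifs, and the FXR and REV-ERB letters, found in 0.0396% and 2.61% of windows, were in none of the members' windows. A match describes letters and not binding.

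The targeted gene, Ube3a, had 5991 and 5938 normalised reads in TG livers, against 1187 and 1359 in their WT livers (log2 fold change 2.23, SE 0.13, limma adjusted p = 0.0586). In het livers it stood at 301 and 280, against 369 and 409 in their WT livers (log2 fold change -0.42, SE 0.11, limma adjusted p = 0.129). Both pairs were separated in the labelled direction, and reads from the knockout allele outside its deleted part may be counted. Normalised reads are the read count multiplied by the library's own factor. The reads recovered over all listed genes were 46940845 and 47928229 in TG, 45672650 and 44193275 in its WT, 17748088 and 13171145 in het, and 15530192 and 14581137 in its WT. The lowest count of any member was 405 reads, for Cyp7b1 in a het library, with an exact 95% Poisson interval of 367 to 446 that covers counting error only. Counting error was small beside the library differences of Cyp7a1 and Cyp8b1 described below.

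No enzyme of the set passed the test against WT in either mutant. Limma with Benjamini-Hochberg adjustment over all genes called 0 of 10 members in TG (background of all genes, 0%) and 0 of 10 in het (background 1.44%), with an adjusted p under 0.05 as the threshold. At an unadjusted p under 0.05 it found 1 member lower in TG, Acox2 (background 3.96% of all genes lower), and 1 lower in het, Cyp7b1 (background 6.11%), and none higher (backgrounds 5.15% and 8.58%). EdgeR's quasi-likelihood test called 0 members (backgrounds 0% in TG and 1.55% in het), as did DESeq2 (1.42% and 2.45%). The log2 fold changes of the members ran from -0.62 to 0.39 in TG, with a median of -0.07 against 0.00 for all genes. In het they ran from -1.48 to 0.28, with a median of -0.15 against 0.00. By sign, 6 of 10 lay below 0 in TG, where 49.8% of all genes did, and 7 of 10 in het, where 50.1% did. The plot of fold changes shows how unequal the precision was across the set. In bulk tissue, fewer cells of a type and less RNA per cell cannot be told apart.

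**Figure D1:**
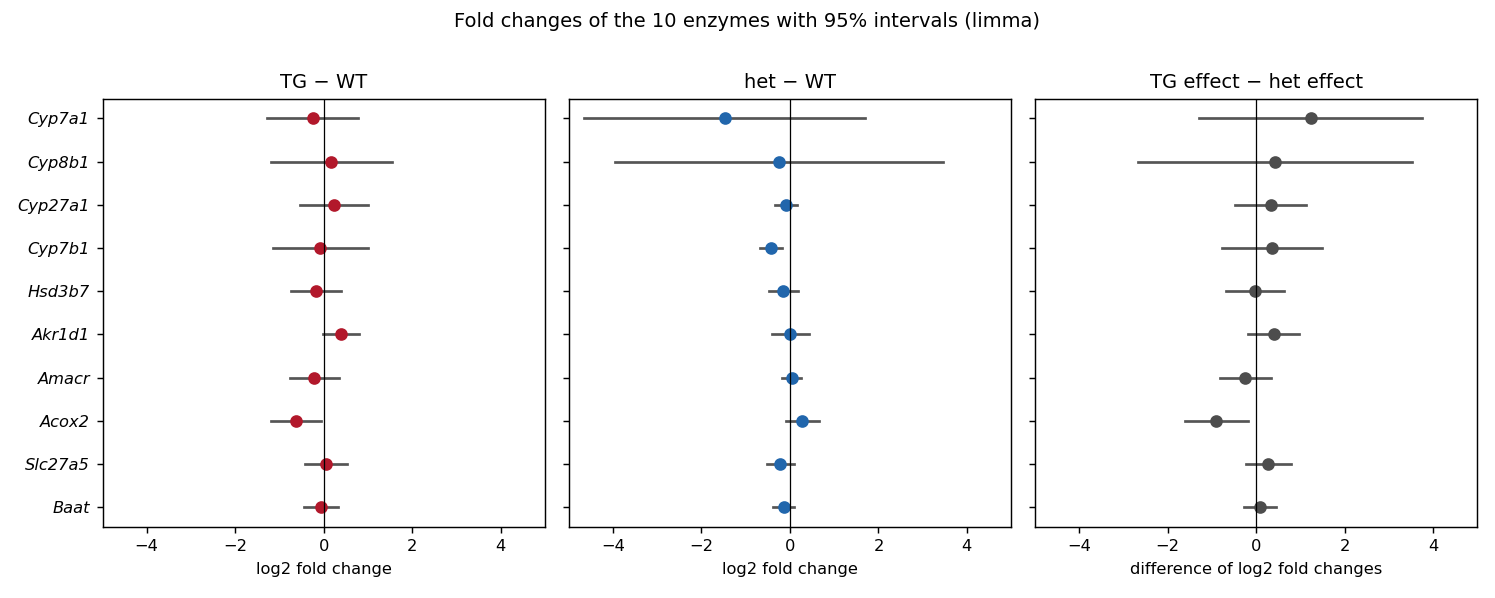
Log2 fold change (x axis) of the 10 enzymes (rows) for TG minus WT, het minus WT and the difference of these effects. Points are limma estimates and lines are 95% intervals; the intervals of Cyp7a1 and Cyp8b1 in het span -4.65 to 1.69 and -3.97 to 3.46, while that of Cyp7b1 in het runs from -0.67 to -0.18.

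The classical pathway begins with Cyp7a1 (ENSMUSG00000028240; chromosome 4, 6265612 to 6275633, - strand, 6 exons, GRCm38), the rate-limiting enzyme of bile acid synthesis. In het livers Cyp7a1 stood at 1096 and 2072 normalised reads, against 2283 and 7735 in their WT livers. Both het libraries were below both WT libraries, but the higher het library lay close to the lower WT library, and the gap to the other WT library made most of the difference in means. The mean was 1584 ± 690 in het and 5009 ± 3856 in WT (SD, n = 2 each). The log2 fold change was -1.48 (SE 0.89, 95% interval -4.65 to 1.69, limma adjusted p = 0.572), the lowest of the set and the one with the widest error but for Cyp8b1. Without the WT library at 7735 the log2 fold change was -0.60, and without the WT library at 2283 it was -2.36. In TG livers Cyp7a1 stood at 11344 and 17511, against 12069 and 23278 in their WT livers. These groups overlapped (log2 fold change -0.25, SE 0.40, 95% interval -1.28 to 0.78, limma adjusted p = 0.846).

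Cyp8b1 (ENSMUSG00000050445; chromosome 9, 121914356 to 121916305, - strand, a gene of 1 exon) encodes the sterol hydroxylase that directs the classical pathway towards cholic acid. In het livers it stood at 884 and 4324 normalised reads, against 2034 and 2677 in their WT livers. The WT libraries thus lay between the het libraries, and the sign of the het effect depended on which het library was kept. The log2 fold change was -0.25 with both (SE 1.04, 95% interval -3.97 to 3.46, limma adjusted p = 0.942). It was -1.40 without the library at 4324 (limma adjusted p = 0.0358) and 0.89 without the library at 884 (limma adjusted p = 0.155); a group of a single library is there assumed to vary like the others. EdgeR and DESeq2, which work on the count scale, gave 0.14 and 0.14 with both libraries. In TG livers Cyp8b1 stood at 5453 and 3616, against 6111 and 2544 in their WT livers. Here the TG libraries lay between the WT libraries (log2 fold change 0.17, SE 0.50, 95% interval -1.19 to 1.54).

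By their largest ratio between libraries of a genotype, these classical genes were the most variable enzymes of the set. The higher over the lower library of a genotype came to 1.51 in TG, 2.40 in its WT, 4.89 in het and 1.32 in its WT for Cyp8b1. The same ratio was 1.54 in TG, 1.93 in its WT, 1.89 in het and 3.39 in its WT for Cyp7a1. For comparison, the median ratio of genes at least as abundant as the least abundant member was 1.15 in TG, 1.10 in its WT, 1.07 in het and 1.08 in its WT. Among 3683 such genes in the het table, 1 had a larger ratio than Cyp8b1 in het (0.0272%) and 4 had a larger ratio than Cyp7a1 in its WT (0.109%). Among 3101 such genes in the TG table, 27 exceeded Cyp8b1 in WT (0.871%) and 58 exceeded Cyp7a1 in WT (1.87%). Baat stood at the other end, with ratios of 1.00 to 1.08 over the 4 groups, and Slc27a5 had 1.03 to 1.22. In TG the largest ratio was that of Cyp7b1, at 2.06, exceeded by 165 of the 3101 genes (5.32%). Baat thus differed little between the libraries in which the classical hydroxylases differed most. Slc27a5 had 1.22 in the WT pair of het, exceeded by 13.1% of the 3683 genes.

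**Figure D2:**
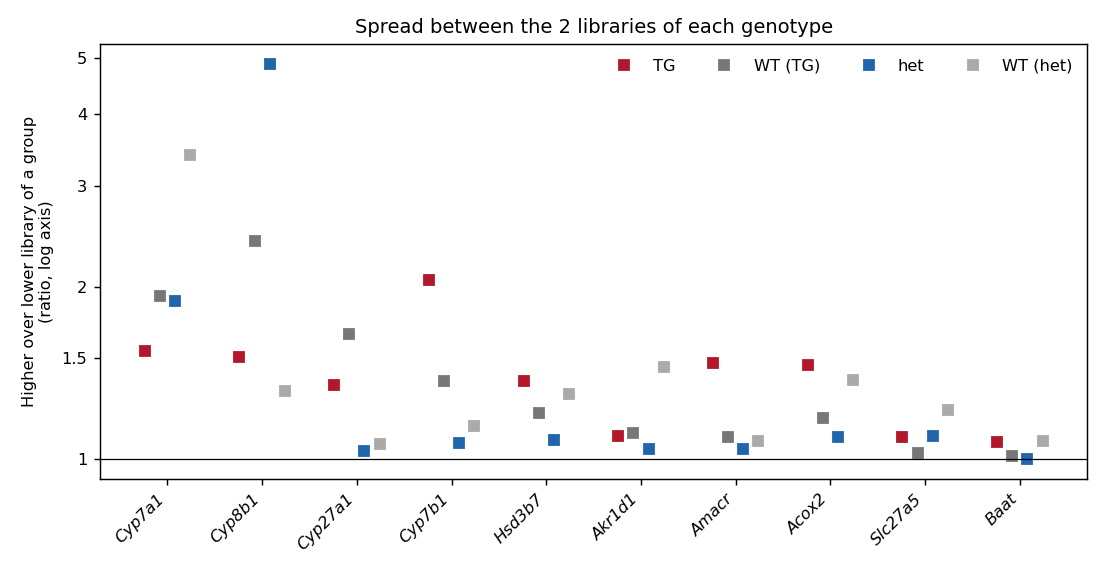
Ratio of the higher to the lower library (y axis, log scale) within each genotype for the 10 enzymes (x axis); a square is a group of 2 libraries, in the order TG, its WT, het, its WT. Cyp8b1 in het (4.89) and Cyp7a1 in the WT livers of het (3.39) stand highest, and all squares of Baat lie at or under 1.08.

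Per kilobase of exon, the balance of the classical hydroxylases also differed between libraries of a genotype. The level of Cyp8b1 over that of Cyp7a1 was 1.73 and 4.47 in het livers, against 1.91 and 0.741 in its WT. It was 1.03 and 0.442 in TG livers, against 1.08 and 0.234 in its WT. The mutant and WT libraries overlapped in both tables.

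The alternative pathway starts with Cyp27a1 (chromosome 1, 74713574 to 74737892, + strand), the mitochondrial sterol hydroxylase. Its levels were 17841 and 24066 normalised reads in TG livers, against 13722 and 22704 in its WT, and overlapped (log2 fold change 0.23, SE 0.31). In het they were 6384 and 6186, against 6910 and 6492 in its WT, a small gap with no overlap (log2 fold change -0.09, 95% interval -0.34 to 0.15). As a fold, the interval runs from 0.792 to 1.11 times the WT level.

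Cyp7b1 (ENSMUSG00000039519; chromosome 3, 18071950 to 18243338, - strand) encodes the oxysterol hydroxylase that follows CYP27A1. It had 437 and 466 normalised reads in het livers, against 567 and 648 in their WT livers. Both het libraries lay below both WT libraries. The mean was 451 ± 20.4 in het and 607 ± 57.6 in WT (SD, n = 2 each), and limma's fold was 0.745 times the WT level (95% interval 0.629 to 0.882). The log2 fold change was -0.42 (SE 0.11, unadjusted p = 0.00351, limma adjusted p = 0.110), so the difference did not pass the test over all genes. EdgeR gave an adjusted p of 0.105 and DESeq2 one of 0.303, and over all alternatives the adjusted p ran from 0.101 to 0.7002. In TG livers Cyp7b1 stood at 1345 and 2766, against 1735 and 2381 in their WT livers, with the WT pair inside the TG pair (log2 fold change -0.08, SE 0.40).

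Of the shared ring steps, Akr1d1 (ENSMUSG00000038641; chromosome 6, 37530173 to 37568815, + strand), the reductase that sets the bent shape of the bile acid ring, was higher in both TG libraries. It stood at 18804 and 17099 normalised reads in TG livers, against 12959 and 14413 in their WT livers. The groups did not overlap, and the log2 fold change was 0.39 (SE 0.16, 95% interval -0.02 to 0.81, limma adjusted p = 0.557). Both TG libraries lay above both WT libraries for 1 of 10 members, where 21.8% of all genes did so. In het it stood at 3624 and 3481, against 2948 and 4271 in its WT, with the het pair inside the WT pair (log2 fold change 0.00, SE 0.17). Hsd3b7 (chromosome 7, 127800604 to 127803802, + strand), which oxidises the ring after its first hydroxylation, overlapped in both tables. Its levels were 14776 and 20252 in TG livers, against 17875 and 21532 in its WT, and 6551 and 7084 in het livers, against 8603 and 6621 in its WT. The annotation places 1717 of its 2769 exon bases in a predicted gene on the same strand and 1729 in a transcript on the opposite strand, so its reads may have been split or shared.

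Acox2 (ENSMUSG00000021751; chromosome 14, 8225511 to 8259353, - strand), the peroxisomal oxidase of the bile acid side chain, was below WT in TG and above the WT mean in het. It stood at 5048 and 7376 normalised reads in TG livers, against 10231 and 8653 in their WT livers. Both TG libraries were below both WT libraries, at 0.649 times the WT level (95% interval 0.436 to 0.964). The log2 fold change was -0.62 (SE 0.23, unadjusted p = 0.0374, limma adjusted p = 0.535). In normalised reads, both TG libraries lay below both WT libraries for 1 of 10 members, where 21.6% of all genes did so. In het livers Acox2 stood at 3602 and 3287, against 3330 and 2417 in their WT livers, an overlap by a single library (log2 fold change 0.28, SE 0.16, limma adjusted p = 0.472). The difference between the TG effect and the het effect was -0.90 (SE 0.31, 95% interval -1.62 to -0.19, unadjusted p = 0.0200, limma adjusted p = 0.220). Among the settings run, it passed only without the TG library at 7376 (-1.18, limma adjusted p = 0.0420).

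The median difference of the effects was 0.30 over the members and 0.01 over all genes, and 3 of 10 members lay below 0, where 48.4% of all genes did. The difference was called for 0 of 10 members by limma (background 0.434%), edgeR (0.374%) and DESeq2 (3.16%). At an unadjusted p under 0.05 limma found Acox2 alone, lower in TG relative to het (background 8.28% lower, 8.42% higher). For Cyp7a1 the difference was 1.23 (SE 1.00, 95% interval -1.29 to 3.75), an interval that holds 0 and large differences of either sign. Amacr (chromosome 15, 10981756 to 10996626, + strand), the racemase that prepares the side chain for ACOX2, overlapped in both tables. Its levels were 4690 and 6917 in TG livers, against 6893 and 6298 in its WT, and 1939 and 2022 in het livers, against 2003 and 1864 in its WT.

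By their largest ratio between libraries of a genotype, the conjugation genes were the least variable of the set. Slc27a5 (chromosome 7, 12988346 to 12998192, - strand), the ligase that activates bile acids with coenzyme A, stood at 51613 and 56342 normalised reads in TG livers, against 51093 and 52506 in its WT. The log2 fold change was 0.06 (95% interval -0.42 to 0.53). In het it stood at 17031 and 15484, against 17080 and 20830 in its WT, with no overlap but with 1 library of each group almost level (log2 fold change -0.22, 95% interval -0.53 to 0.10). Baat (chromosome 4, 49489422 to 49506557, - strand), the transferase that attaches taurine or glycine, stood at 12045 and 12926 in TG livers, against 13094 and 12904 in its WT (log2 fold change -0.06, 95% interval -0.43 to 0.32). In het it stood at 3428 and 3423, against 3644 and 3927 in its WT (log2 fold change -0.14, 95% interval -0.37 to 0.09). For Baat these intervals allow a level between 0.740 and 1.25 times WT in TG and between 0.771 and 1.06 times WT in het.

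In het, 5 of 10 members had both mutant libraries below both WT libraries: Cyp7a1, Cyp27a1, Cyp7b1, Slc27a5 and Baat. Among all genes of that table the share was 23.7%. No member had both het libraries above both WT libraries, where 24.3% of all genes did. The members are read in the same 4 libraries and are not independent of each other, and 3 of these 5 had log2 fold changes between -0.22 and -0.09.

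**Figure D3:**
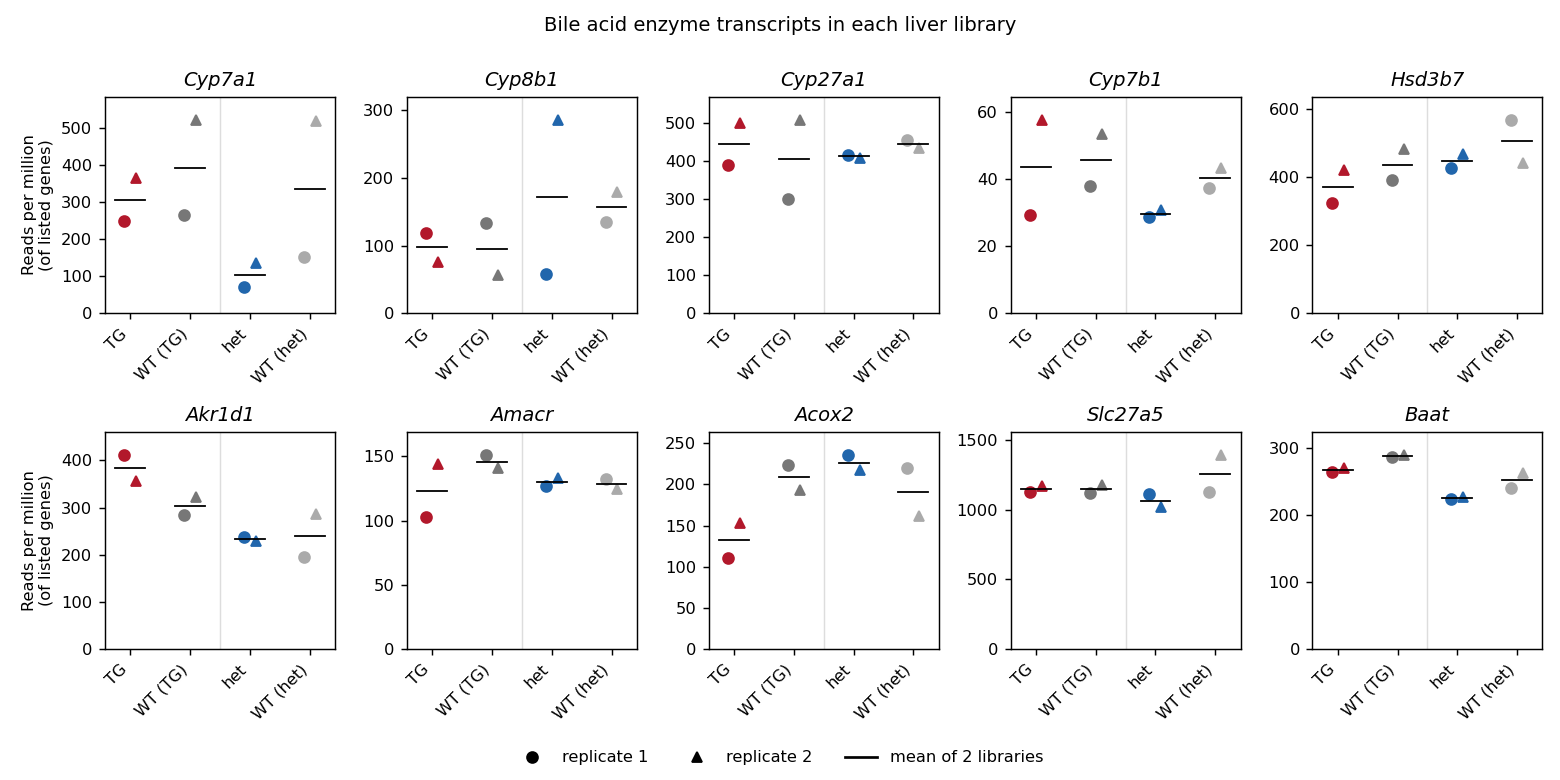
Level of each enzyme in each library, as CPM over the listed genes (y axis, from 0), for TG, its WT, het and its WT (x axis); circles are replicate 1, triangles replicate 2 and lines the mean of 2 libraries. The TG and het tables were normalised separately and list different numbers of genes, so levels across the vertical line were not tested. In CPM, Acox2, Akr1d1 and Baat separate from WT in TG, and Cyp7a1, Cyp27a1, Cyp7b1, Slc27a5 and Baat in het. Baat in TG (263 and 269 CPM, against 287 and 289 in its WT) overlaps WT in normalised reads.

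Per kilobase of exon (GENCODE M21), the order of levels was alike at both ends in all 4 groups. Slc27a5 was highest, at a mean of 22140 normalised reads per kilobase in TG and 21247 in its WT, and 6668 in het and 7775 in its WT. Cyp27a1 was second in each group, at 9643 in TG and 8382 in its WT, and 2892 in het and 3084 in its WT. Cyp7b1 was lowest in each group, at 949 in TG and 950.0 in its WT, and 208 in het and 280 in its WT. Slc27a5 and Cyp7b1 did not overlap their neighbours in the order in any group. Between them the order was less firm: in TG, Baat, Hsd3b7 and Akr1d1 overlapped in turn, as did Cyp7a1, Cyp8b1, Amacr and Acox2. Cyp7a1 was ninth of 10 in het, at 379 normalised reads per kilobase, and seventh in its WT, at 1200.1, where it overlapped its neighbours Cyp8b1 and Acox2.

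Further genes of the pathway were grouped in lists, shown in the plot of related lists. Of 22 measured other enzymes of bile acid synthesis, limma called none in TG or in het; the median log2 fold change was -0.07 in both, against 0.00 for all genes. The 2 of smallest p in TG were Cyp39a1, an oxysterol hydroxylase, and Stard4, a cholesterol carrier. Cyp39a1 stood at 1860 and 2877 normalised reads in TG livers, against 642 and 1011 in its WT (log2 fold change 1.52, SE 0.31, limma adjusted p = 0.450). In het it stood at 351 and 277, against 522 and 425 in its WT (log2 fold change -0.59, SE 0.15, limma adjusted p = 0.121). Cyp39a1 was thus separated from WT upward in TG and downward in het, without passing the test in either. Stard4 stood at 4476 and 2773 in TG livers, against 2401 and 1668 in their WT (log2 fold change 0.82, limma adjusted p = 0.542). Akr1c6, a hydroxysteroid dehydrogenase, stood at 13553 and 14772 in het livers, against 20693 and 20180 in its WT (log2 fold change -0.53, limma adjusted p = 0.0801).

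**Figure D4:**
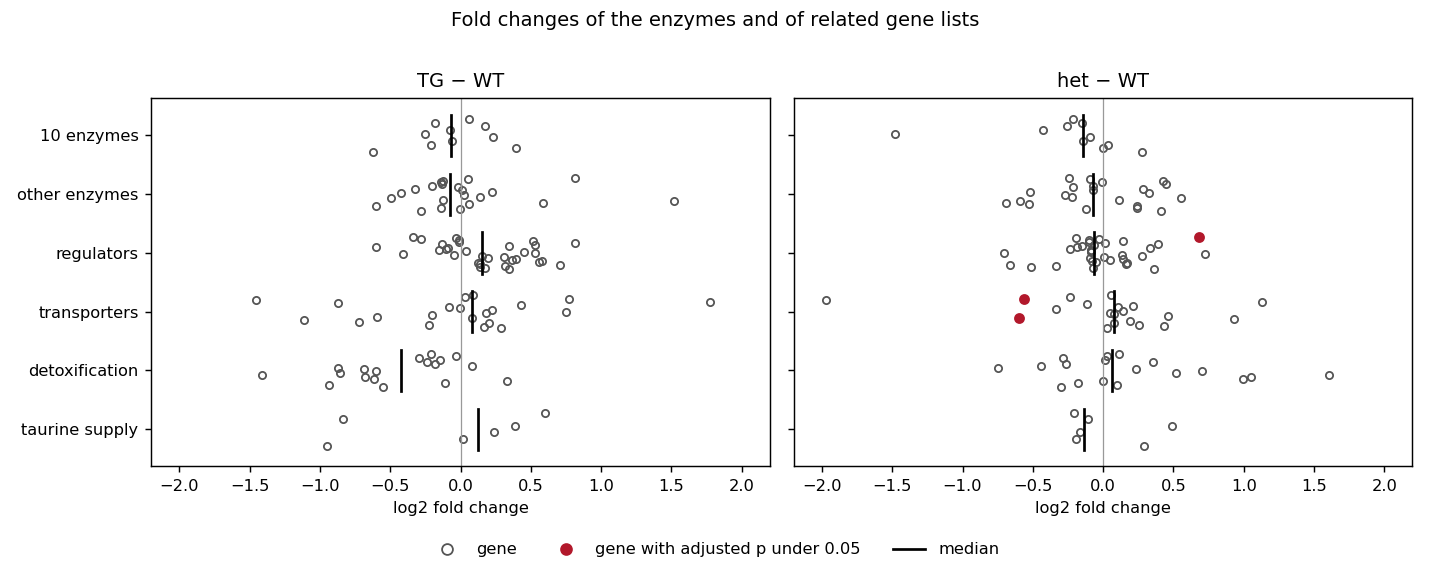
Log2 fold change (x axis) of each measured gene in the 10 enzymes and 5 related lists (rows), for TG minus WT and het minus WT. Open circles are genes, filled circles are genes with a limma adjusted p under 0.05 and vertical lines are medians; the filled circles are Smarca4, Slco1a4 and Abcc6 in het, and the detoxification list has the lowest median in TG, at -0.42.

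Of 33 measured regulators, limma called none in TG (median log2 fold change 0.15) and 1 in het (median -0.07), where 1.44% of all genes were called. Smarca4, the ATPase of a chromatin remodelling complex, rose in het to 1564 and 1347 normalised reads, against 837 and 977 in its WT (log2 fold change 0.68, SE 0.12, limma adjusted p = 0.0371). The call ended with all 8 libraries in 1 limma fit (adjusted p = 0.170), without robust estimates (0.05995), under the replicate block (0.0551) and in 3 of 4 fits without a library. Ppargc1a, a coactivator of nuclear receptors, stood at 905 and 947 in TG livers, against 525 and 529 in its WT (log2 fold change 0.81, limma adjusted p = 0.267). Kdm6a, a histone demethylase, stood at 1193 and 1204 in TG livers, against 835 and 795 in their WT (log2 fold change 0.56, limma adjusted p = 0.431). The genes of the feedback loop were picked after their values were seen. SHP (Nr0b2) stood at 425 and 613 in het livers, against 389 and 244 in its WT (log2 fold change 0.73, SE 0.32, limma adjusted p = 0.415). In TG it stood at 1375 and 2383, against 2479 and 2322 in its WT (log2 fold change -0.41, SE 0.28). FXR (Nr1h4) stood at 1922 and 1866 in het livers, against 2104 and 2358 in its WT (log2 fold change -0.23, limma adjusted p = 0.332). Fgfr4 stood at 476 and 378 in het livers, against 502 and 569 in its WT (log2 fold change -0.33, limma adjusted p = 0.298). Klb had a log2 fold change of -0.08 in het. In TG the log2 fold changes were -0.10 for FXR, 0.32 for Fgfr4 and 0.58 for Klb (limma adjusted p = 0.803, 0.579 and 0.598). None of these passed the test. Both het libraries lay above WT for SHP and below WT for FXR and Fgfr4, where 24.3% of all genes lay above and 23.7% below. Both TG libraries lay above WT for Fgfr4 and Klb and below WT for FXR, where 21.8% of all genes lay above and 21.6% below. The library with more SHP had more Cyp7a1 in het and in TG, and less Cyp7a1 in the WT pair of each. The part of the loop in the Cyp7a1 values was not tested.

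The clock factors Dbp and Nr1d1 (REV-ERB alpha), also picked after their values were seen, were lower in both het libraries. Dbp stood at 1629 and 1350 normalised reads in het livers, against 2215 and 2028 in its WT (log2 fold change -0.51, SE 0.12, limma adjusted p = 0.0827). In TG it stood at 5362 and 5008, against 4931 and 4488 in its WT (log2 fold change 0.14). Nr1d1 stood at 814 and 725 in het livers, against 1608 and 972 in its WT (log2 fold change -0.70, limma adjusted p = 0.367). In TG livers Nr1d1 stood at 4507 and 3556, against 3529 and 2187 in their WT (log2 fold change 0.53, limma adjusted p = 0.601). Other clock genes of the list lay closer to 0 or above it in het. Their het log2 fold changes were -0.08 for Nr1d2, 0.13 for Nfil3, 0.14 for Rora and 0.36 for Bhlhe40 (limma adjusted p = 0.234). In TG they were 0.45 for Nr1d2, -0.05 for Nfil3, 0.51 for Rora (limma adjusted p = 0.454) and 0.34 for Bhlhe40. Within each group, TG and its WT included, the library with more Nr1d1 had less Cyp7a1. Cyp7a1 was higher in replicate 2 in 4 of 4 groups, so any gene lower in replicate 2 in each group shows this order. The share of all genes that do so is not given here. The labels give no time of day, and the part of these genes in the levels of Cyp7a1 and Cyp8b1 was not tested.

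Of the bile acid and sterol transporters, 21 were measured in TG and 20 in het; limma called none in TG (median 0.08) and 2 in het (median 0.08), both lower, where 1.44% of all genes were called in either direction. Slco1a4, an organic anion uptake carrier, fell in het to 1028 and 1094 normalised reads, against 1558 and 1574 in its WT (log2 fold change -0.56, SE 0.09, limma adjusted p = 0.0313). In TG the same gene stood at 9086 and 9345, against 5002 and 5805 in its WT (log2 fold change 0.77, limma adjusted p = 0.382). Abcc6, an ABC transporter of the basolateral membrane, fell in het to 3254 and 2950, against 4942 and 4464 in its WT (log2 fold change -0.60, SE 0.11, limma adjusted p = 0.0442). With all 8 libraries in 1 limma fit both calls ended (adjusted p = 0.207 for Slco1a4 and 0.224 for Abcc6), as they did in each of the 4 fits without a library. That of Abcc6 also ended without robust estimates (0.0562) and under the replicate block (0.0580). Slc10a2, the sodium-dependent bile acid carrier of ileum and bile ducts, stood at 203 and 225 in TG livers, against 375 and 409 in its WT (log2 fold change -0.87, limma adjusted p = 0.382).

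Detoxification and taurine supply had no called gene in either table. The median log2 fold change of the 18 detoxification genes was -0.42 in TG, with 16 of 18 below WT where 49.8% of all genes were, and 0.06 in het, with 7 of 18 below WT where 50.1% were. The TG libraries stood apart from each other: the list summed to 203139 and 298673 normalised reads in TG, against 283051 to 285630 in its WT, so that 1 TG library lay below and the other above both WT libraries. In TG the 2 of smallest p were Sult2a4 (log2 fold change -0.85, limma adjusted p = 0.542) and Cyp2b10 (-0.55, limma adjusted p = 0.534), a xenobiotic hydroxylase. Sult2a3, a bile acid sulfotransferase, stood at 281 and 273 normalised reads in het livers, against 120 and 67.7 in its WT (log2 fold change 1.61, SE 0.27, limma adjusted p = 0.0575). Sult2a2 stood at 3018 and 2226 in het livers, against 1091 and 1427 in its WT (log2 fold change 1.05, limma adjusted p = 0.0836). The family was mixed in het: Sult2a7 and Sult2a8 lay below WT (log2 fold changes -0.75 and -0.44, limma adjusted p = 0.326 and 0.148). Sult2a1, Sult2a4, Sult2a5 and Sult2a6 lay above WT (0.996, 0.52, 0.70 and 0.23). The Sult2a genes are near-identical copies, so counting could have split or shared their reads. Of the 6 genes of taurine supply, Bhmt, which feeds methionine to the pathway, stood at 27964 and 28005 in TG livers, against 45679 and 64191 in its WT (log2 fold change -0.95, SE 0.23, limma adjusted p = 0.492). Slc6a6, the taurine uptake carrier, stood at 8329 and 5730 in TG livers, against 5111 and 4053 in their WT (log2 fold change 0.60, limma adjusted p = 0.543).

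The genes most like Cyp7a1 were sought among 11249 genes by the root mean square difference of log2 values, centred on the WT mean of each table, over 8 libraries. They were Psma8 (0.472), Adgrd1 (0.494) and Chrm1 (0.507), each a low gene with 6.03 to 61.5 normalised reads per library in the het table. Counts of that size carry a large counting error.

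Cell type markers differed between the groups and stand beside every result above. The 9 measured hepatocyte markers summed to 4890673 to 5288713 normalised reads in TG, against 3989978 to 4926016 in its WT, with 8 of 9 above WT. In het they summed to 1488935 to 1644391, against 1585385 to 1834196 in its WT, with 3 of 9 above WT. The 12 endothelial markers summed to 16168 to 16230 normalised reads in TG livers, against 19522 to 19877 in its WT, with 0 of 12 above WT. In het they summed to 5830 to 5909, against 4736 to 5103 in its WT, with 12 of 12 above WT and Lyve1 and Gpr182 called. Kupffer cell markers were above WT for 0 of 11 in TG and 9 of 11 in het. Of all genes, 49.8% lay below WT in TG and 50.1% in het. The Kupffer sums were 19388 to 26732 in TG livers, against 30333 to 32544 in their WT. In het livers they overlapped WT, at 8609 to 11995 against 7522 to 10200. The 11 pericentral hepatocyte markers, from the zone where Cyp7a1 is mainly expressed, summed to 177481 to 213838 in het livers, against 235607 to 240424 in its WT, with 2 of 11 above WT and Rnf43 called lower. In TG that sum was 392373 to 731779, against 473996 to 643285 in its WT. The 9 measured periportal markers summed to 83243 to 98856 in het livers, against 63026 to 78258 in their WT, with 6 of 9 above WT and a median log2 fold change of 0.29. In TG they summed to 209742 to 400674, against 307676 to 347327 in its WT, with 2 of 9 above WT and a median of -0.39. Of the 3 measured mesothelial markers, Upk3b and Gpm6a were called lower in het. These 3 were low genes, with sums of 43 to 54 normalised reads in het against 166 to 192 in its WT. Cholangiocyte, stellate and lymphocyte lists had no called gene in either table. Limma called 1.44% of all genes in het, in either direction. With all 8 libraries in 1 fit limma called 0 genes in het, these markers included. Without robust estimates the calls of Lyve1, Gpr182, Rnf43 and Gpm6a ended (limma adjusted p = 0.0631, 0.0675, 0.0525 and 0.0673). That of Upk3b stayed (0.0178). No measured marker was at 0, and the part of cell makeup or zone in the enzyme values was not tested.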

How the data were processed

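Total liver RNA went into TruSeq libraries, per the labels' protocols. Tools listed without roles in the submitters' processing notes are Subread 1.5.2, featureCounts and DESeq2, with mm10/GRCm38 as build; which annotation was counted, and whether by strand, is not given in the sources used here. Signal values as the authors deposited them behave as gene read counts scaled by 1 factor per library: dividing by that factor gave whole reads for 100% of entries, within 0.01 read. The tables for TG and het were normalised separately and tested separately. They list no gene with a mean under 11.2 (TG) or 17.8 (het) normalised reads. Gene names turned into dates (20 in TG, 18 in het) stayed in the fits and are not named.

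Log2(value + 1) was fitted with limma 3.58.1 (trend and robust, R 4.3.3) over all genes, with Benjamini-Hochberg adjustment; a fold change on this scale understates the change of low genes. The difference of effects used 8 libraries and 11754 shared genes. EdgeR 4.0.16 and DESeq2 1.42.0 on recovered reads were alternatives. The scripts were tested on simulated data. Positions are from GENCODE M21.

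Members and lists were chosen with earlier results of these data known. Named beside the members were Ube3a, the called genes of each list (up to 4 per table) or else those among the 2 of smallest p, and the 3 genes most like Cyp7a1. Nr0b2, Nr1h4, Dbp, Nr1d1 and the genes of the other observations were picked after their values were seen.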

Additional observations from a re-analysis of the deposited data

Results flagged for a closer look

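Of the 10 members and Ube3a, 2 had both TG libraries and both het libraries on opposite sides of their WT means in normalised reads. The share of all genes that did so is not given here. On the log2 scale Cyp27a1 did so too, at 0.0154 and 0.447 in TG and -0.0691 and -0.115 in het. Ube3a, the gene changed by design, was above WT in TG and below WT in het, and the TG effect minus the het effect was 2.65 (log2; limma adjusted p = 0.00157). Acox2 was below the WT mean in both TG libraries and above the WT mean in both het libraries, with a difference of -0.90 (limma adjusted p = 0.220) that did not pass over all genes.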

How the results depend on the processing

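No member was called in TG or het under 12 other settings, or for the difference under 11. Medians of the members ran from -0.10 to -0.03 (TG) and -0.16 to -0.12 (het) there. Leaving out 1 library in turn gave -0.259 to 0.0667 for the TG median and -0.232 to -0.0809 for the het median (lowest without TG replicate 2 and without the WT replicate 1 of het), and 0 to 1 called members in het and for the difference (0 in TG): Cyp8b1 without the second het library and Acox2 without the second TG library. Some signs turned, and the cause was not tested. Het Cyp8b1 became 0.14 in edgeR and 0.14 in DESeq2, and its difference -0.0706 and -0.0860. Het Akr1d1 became -0.0283 in edgeR, -0.0242 in DESeq2, -0.0057 in limma-voom, -0.0037 with TMM scaling and -0.0160 with library sums without the 20 most abundant genes. With a library left out, TG values ran from -0.72 to 0.22 (Cyp7a1), -0.46 to 0.80 (Cyp8b1), -0.13 to 0.59 (Cyp27a1), -0.60 to 0.44 (Cyp7b1), -0.41 to 0.0459 (Hsd3b7), -0.49 to 0.0702 (Amacr) and -0.0051 to 0.12 (Slc27a5). Het values ran from -1.40 to 0.89 (Cyp8b1), -0.34 to 0.0411 (Hsd3b7), -0.27 to 0.27 (Akr1d1) and -0.0164 to 0.0873 (Amacr). Differences ran from -0.72 to 1.57 (Cyp8b1), -0.04 to 0.69 (Cyp27a1), -0.17 to 0.87 (Cyp7b1), -0.26 to 0.19 (Hsd3b7) and -0.53 to 0.0348 (Amacr). Counts over all genes moved more: 0 in TG became 188 in DESeq2, 25 with all 8 libraries in 1 fit and 0 to 146 with a library left out (146 without TG replicate 2); 169 in het became 289 in DESeq2, 93 with no robust estimates, 0 with all 8 libraries and 61 to 173 with a library left out (61 without het replicate 1); 51 for the difference became 371 in DESeq2, 30 in limma-voom and 5 to 643 with a library left out (643 without TG replicate 2). Replicate numbers are shared by the groups, but same-numbered libraries deviated together with correlations of 0.11 (TG) and -0.04 (het) over only 2 pairs, so the numbers were not taken to pair the samples. The replicate block called 0 members in each comparison. Under the block limma gave Cyp7a1 in het an unadjusted p of 0.00263, against 0.212 without it. Its limma adjusted p under the block was 0.0960, the nearest of any setting to the threshold for this gene. Replicate 2 was above replicate 1 in 4 of 4 groups for Cyp7a1 and Cyp7b1, and in 1 to 3 groups for the other members. Depth limits the least read member: Cyp7b1 in het had 507 and 405 reads, with exact 95% Poisson intervals of 464 to 553 and 367 to 446, while its normalised reads differed by 1.07 times between these libraries.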

Other observations

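Partners of ACOX2 in the peroxisome were looked at after their values were seen. Scp2, the thiolase that ends side chain shortening, stood at 31579 and 30927 normalised reads in het livers, against 23117 and 22685 in their WT livers (log2 fold change 0.45, SE 0.12, limma adjusted p = 0.126). Hsd17b4, the bifunctional enzyme between ACOX2 and SCP2, stood at 8910 and 9665 in het livers, against 7624 and 7198 in its WT (log2 fold change 0.33, limma adjusted p = 0.235). Abcd3, a peroxisomal importer of bile acid precursors, stood at 12670 and 13271 in het livers, against 9501 and 10035 in its WT (log2 fold change 0.41, limma adjusted p = 0.136). Each was above both WT libraries in both het libraries, where 24.3% of all genes were, and none passed the test. Other genes of the same list did not all follow in het. Their log2 fold changes were 0.24 for Acot8 and Acnat2, both with overlap, 0.28 for Pex5 and -0.12 for Acnat1. Slc27a2 had -0.01, Pex2 -0.07 and Pex6 -0.22. In TG the log2 fold changes were -0.13 for Scp2, -0.42 for Hsd17b4 and -0.29 for Abcd3, with overlapping groups.

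Cyp2c70, which forms the muricholic acids of mice, stood at 46913 and 43185 in TG livers, against 24532 and 36807 in its WT (log2 fold change 0.58, limma adjusted p = 0.563). In het it stood at 8038 and 5479, against 9614 and 11927 in its WT (log2 fold change -0.69, SE 0.21, limma adjusted p = 0.217). Its groups did not overlap in either table.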
